A study of Rattus norvegicus with 12 samples.

Results

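The genes of cholesterol and fatty acid synthesis were followed in wound tissue of diabetic rats. The members were 32 genes chosen by symbol, and all 32 were found among the 25620 genes of the count table and among the 25524 genes of the FPKM table. They comprised 18 enzymes of the sterol path, 6 regulators and carriers, and 8 enzymes of the fatty acid path. The rats were male Sprague-Dawley animals made diabetic with streptozotocin, a toxin of the insulin-producing beta cells, and each carried a full-thickness skin wound on the back. The control wounds received normal saline, and the others received d-SMG (the dried mucus gel of the snail *Achatina fulica*), s-GAG (the sulfated glycosaminoglycan of that mucus), or Alg (an alginate dressing). All groups, the control included, were therefore diabetic and wounded. Skin was sequenced on day 3, 7, and 14 as 1 library for each treatment and day, 12 libraries altogether, and the labels do not tell which or how many rats a library came from. A difference between 2 libraries of the same day has no replicate check for that reason, and its interval covers the counting error only.

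Cholesterol is built from acetyl-CoA by way of mevalonate, squalene, and lanosterol, whereas fatty acids are built from the same acetyl-CoA by carboxylation, chain synthesis, elongation, and desaturation. Both paths are controlled by the SREBP transcription factors, which the carrier Scap brings out of the endoplasmic reticulum when sterols are low and which the Insig proteins hold back when sterols are high. In skin, these lipids are made by keratinocytes for the permeability barrier and by sebaceous glands for sebum.

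The libraries held 13748887 to 38302461 reads on genes. The counts were scaled by TMM (a trimmed mean of ratios between libraries), and levels between libraries are given as CPM, the counts divided by the scaled library total. The TMM factors lay between 0.741 in d-SMG on day 3 and 1.26 in d-SMG on day 7, and s-GAG on day 14 had 0.744. All 32 members were among the 16110 genes that passed the filter on low counts. One library stood apart from its label of skin: in d-SMG on day 3 the 12 keratinocyte markers matched (of 14 listed) summed to 57.6 CPM, against 4425 to 35270 CPM in the other 11 libraries. The 8 sebaceous gland markers summed to 15.3 CPM there, against 533 to 2606 CPM elsewhere, and the wax synthase gene *Awat2* and the reductase gene *Far2* had 0 reads. The 14 skeletal muscle markers were highest in the same library, at 237900 CPM, against 5752 to 153400 CPM elsewhere. In bulk tissue, fewer cells of a type and less RNA per cell cannot be told apart.

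Among the sterol enzymes, the levels per length spanned a wide range. The median FPKM over the 12 libraries was highest for *Pmvk* (phosphomevalonate kinase, 77.1), *Fdps* (farnesyl diphosphate synthase, 69.9), *Cyp51* (lanosterol demethylase, 58.5), and *Hmgcs1* (HMG-CoA synthase, 57.5). It was lowest for *Tm7sf2*, a sterol reductase, at 0.425 FPKM, where single libraries held 4 to 48 reads. Among the fatty acid enzymes it ran from 2.59 for the desaturase *Fads1* to 51.5 for the elongase *Elovl5*, and among the regulators from 3.64 for *Srebf2* to 10.6 for *Insig1*.

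The spread over the 12 libraries differed by role. The highest level was a median of 9.12-fold above the lowest for the sterol enzymes and 8.80-fold for the fatty acid enzymes, whereas the regulators had a median of 2.87-fold and all 16110 genes passing the filter 4.29-fold. Without d-SMG on day 3, an alternative chosen after seeing the data, the medians were 3.91-fold for the sterol enzymes, 3.44-fold for the fatty acid enzymes, 2.87-fold for the regulators, and 3.92-fold for all genes. d-SMG on day 3 was the lowest of the 12 libraries for 15 of 18 sterol enzymes and 6 of 8 fatty acid enzymes. The highest library was d-SMG on day 14 for 9 sterol enzymes, s-GAG on day 14 for 8, and Alg on day 7 for *Hsd17b7*, a ketosteroid reductase. With scaling by library size alone, d-SMG on day 14 was highest for 13 and s-GAG on day 14 for 5.

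**Figure D1:**
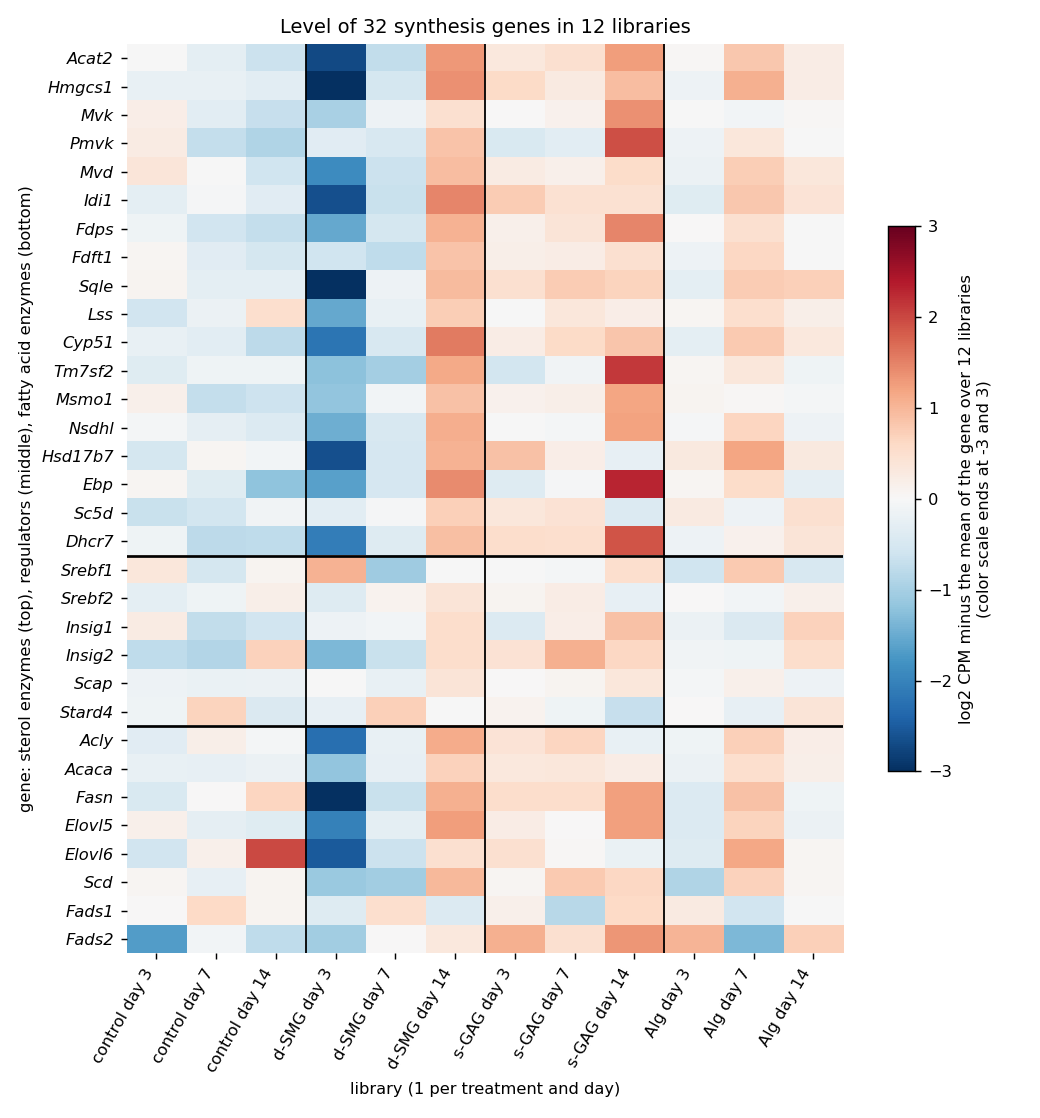
Log2 CPM of each of the 32 genes (vertical axis, grouped by role) in each of the 12 libraries (horizontal axis), shown as the difference from the mean of the gene over the libraries. The column of d-SMG on day 3 is blue for 15 sterol enzymes that had their lowest level there, and the columns of d-SMG and s-GAG on day 14 are red for most of the sterol enzymes, while *Srebf2* and *Scap* are nearly white throughout.

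The 5 sterol enzymes with the widest range are given in every library, each with its values on day 3, 7, and 14 in that order. *Hmgcs1* makes HMG-CoA, the precursor of mevalonate, and its level was 197, 197, and 185 CPM in the control, 28.8, 161, and 599.9 in d-SMG, 345, 280.1, and 435 in s-GAG, and 208, 484, and 269 in Alg. The single library at a low value was d-SMG on day 3, and the 3 highest were d-SMG on day 14, Alg on day 7, and s-GAG on day 14. Squalene epoxidase, *Sqle*, had levels of 14.1, 10.9, and 11.0 CPM in the control, 1.29, 12.01, and 25.9 in d-SMG, 18.9, 22.7, and 21.3 in s-GAG, and 10.9, 22.8, and 22.1 in Alg. Only 16 reads were counted in d-SMG on day 3, against 336 in the control of that day. For *Idi1*, the isomerase of the isoprene units, the levels were 59.1, 71.1, and 57.6 CPM in the control, 11.7, 45.7, and 200.2 in d-SMG, 123, 101, and 100.5 in s-GAG, and 56.8, 127, and 97.5 in Alg. d-SMG on day 14 lay above all other libraries and d-SMG on day 3 below them. The thiolase *Acat2*, which condenses acetyl-CoA at the start of the path, had 50.6, 41.9, and 32.9 CPM in the control, 7.88, 30.8, and 126 in d-SMG, 63.9, 71.9, and 124 in s-GAG, and 52.5, 89.6, and 59.6 in Alg. Its level in d-SMG and s-GAG on day 14 was nearly equal, and its level in d-SMG on day 3 was again the lowest. *Dhcr7*, which reduces 7-dehydrocholesterol to cholesterol, had 3.40, 2.18, and 2.20 CPM in the control, 0.885, 2.85, and 6.99 in d-SMG, 5.39, 5.28, and 13.8 in s-GAG, and 3.38, 4.07, and 4.91 in Alg, with its highest level in s-GAG on day 14.

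The sterol enzymes had similar courses over the libraries, and the bases before the start are therefore shown for 3 of those with the widest range, 2 with a CCAAT box and 1 without. Of the 32 members, 25 were matched to a RefSeq promoter of the build GRCr8, and *Pmvk*, *Fdft1*, *Sqle*, *Stard4*, *Acaca*, *Fasn*, and *Elovl6* were not. Each line holds the 250 bases before the start, 5′ to 3′ on the strand of the gene, with the letters CCAAT, or their reverse complement ATTGG, in capitals. The window of *Hmgcs1* lies at chr2:53382054-53382303, plus strand. That of *Idi1* lies at chr17:66547525-66547774, minus strand. That of *Dhcr7* lies at chr1:208444184-208444433, plus strand.
Hmgcs1: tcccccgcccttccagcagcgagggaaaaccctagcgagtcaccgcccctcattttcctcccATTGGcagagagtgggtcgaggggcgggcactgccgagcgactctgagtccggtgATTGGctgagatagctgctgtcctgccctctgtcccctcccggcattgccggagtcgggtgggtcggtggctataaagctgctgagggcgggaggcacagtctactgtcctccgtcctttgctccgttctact
Idi1: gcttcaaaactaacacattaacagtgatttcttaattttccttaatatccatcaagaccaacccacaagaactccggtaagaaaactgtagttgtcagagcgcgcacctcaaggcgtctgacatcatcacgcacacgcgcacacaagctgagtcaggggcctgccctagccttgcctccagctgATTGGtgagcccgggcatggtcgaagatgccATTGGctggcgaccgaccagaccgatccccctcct
Dhcr7: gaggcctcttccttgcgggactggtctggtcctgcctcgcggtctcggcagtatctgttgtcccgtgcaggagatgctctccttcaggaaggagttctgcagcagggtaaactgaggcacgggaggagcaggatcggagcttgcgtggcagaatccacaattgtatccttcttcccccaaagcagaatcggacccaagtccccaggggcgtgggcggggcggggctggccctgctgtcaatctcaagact
The windows of *Hmgcs1* and *Idi1* held 2 matches to CCAAT each, and that of *Dhcr7* held 0. On either strand, CCAAT was present in 12 of the 15 matched sterol enzymes, 4 of 5 regulators, and 3 of 5 fatty acid enzymes, and in 34.3% of 27457 promoters of the same length. The GC box GGGCGG was present in 13, 4, and 3 of these genes, respectively, and in 32.4% of all promoters. TCACNCCAC, a form of the core of the sterol regulatory element, was present in 0 of the 25 members and in 0.976% of all promoters. At so low a share, 0 of 25 tells nothing about the members, and other forms of the element were not searched. A match is a run of letters and not a shown binding site.

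To ask whether the paths differed between each treatment and the control at the same time, each treated library was set against the control library of its day. A gene was compared where both libraries summed to 10 reads or more, counts under 3 were set to 3, and a difference of at least 2-fold was counted, with no test. The 3 pairs of a day share 1 control library.

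On day 3, the sterol path was lower in d-SMG than in the control. Of the 18 sterol enzymes, 13 were at least 2-fold lower and 0 were at least 2-fold higher, against 13.5% and 9.47% of all genes, and the median log2 difference was -1.56, against -0.03 over all genes. The log2 difference was -3.46 (95% counting interval -4.28 to -2.73) for *Sqle*, -2.77 (95% counting interval -2.93 to -2.62) for *Hmgcs1*, and -2.68 (95% counting interval -2.995 to -2.38) for *Acat2*. The farnesyl diphosphate synthase *Fdps* differed by -1.41 and the lanosterol demethylase *Cyp51* by -1.96. The exceptions under 2-fold were *Pmvk* (-0.59), the squalene synthase *Fdft1* (-0.68), *Tm7sf2* (-0.87), the lanosterol synthase *Lss* (-0.95), and the sterol desaturase *Sc5d*, which was higher by 0.35. Of the fatty acid enzymes, 5 of 8 were at least 2-fold lower, with a median of -1.55. They were the fatty acid synthase *Fasn* at -2.74 (95% counting interval -3.06 to -2.44), *Elovl5* at -2.18, *Elovl6* at -1.96, the citrate lyase *Acly* at -1.92, and the desaturase *Scd* at -1.17. None of the 6 regulators differed by 2-fold. These differences are those of the library in which the keratinocyte and sebaceous gland markers were lowest, and the part of those cells in them was not tested.

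In s-GAG on day 3, 2 sterol enzymes, 1 regulator, and 3 fatty acid enzymes were at least 2-fold higher and 0 members were lower, against 14.6% and 10.9% of all genes. The members were *Hsd17b7* (1.40), *Idi1* (1.06), *Insig2* (1.20), the desaturase *Fads2* (2.76), *Elovl6* (1.04), and *Fasn* (1.001). In Alg on day 3, *Fads2* was higher by 2.69 (95% counting interval 2.46 to 2.92), and no other member differed by 2-fold, against 11.5% higher and 8.73% lower of all genes. The median of the sterol enzymes was 0.31 in s-GAG and -0.005 in Alg on that day. All 12 hair follicle markers were at least 2-fold higher in s-GAG and in Alg, with a sum of 33.3 CPM in the control. Of the 12 keratinocyte markers, 8 were higher and 0 lower in s-GAG, and 2 were higher and 2 lower in Alg. Of the 8 sebaceous gland markers, 0 differed by 2-fold in s-GAG, and 1 was lower and 0 higher in Alg. The part of these cells in the differences of s-GAG and Alg on day 3 was not tested.

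On day 7, no member differed by 2-fold in d-SMG, against 6.76% higher and 6.38% lower of all genes, and the medians of the sterol and fatty acid enzymes were -0.16 and -0.23. With library size alone these medians turned to 0.20 and 0.12, while that of all genes moved from -0.05 to 0.31. In s-GAG, all 18 sterol enzymes lay above the control, with a median of 0.51, and 2 of them, *Dhcr7* (1.27) and *Sqle* (1.05), were at least 2-fold higher, against 11.9% of all genes. *Insig2* was higher by 1.93 (95% counting interval 1.74 to 2.12) and *Scd* by 1.04, whereas *Fads1* was the only member at least 2-fold lower (-1.42), against 12.5% of all genes. In Alg, all 18 sterol enzymes again lay above the control, with a median of 0.91 against 0.01 over all genes, and 7 of them were at least 2-fold higher, against 12.5% of all genes. These 7 were *Hmgcs1* (1.30), *Hsd17b7*, *Cyp51*, *Acat2*, *Sqle*, *Pmvk*, and *Fdps* (1.05), in the order of their differences. *Srebf1* (1.30) and *Elovl6* (1.01) were also at least 2-fold higher, and *Fads1* (-1.18) and *Fads2* (-1.27) were at least 2-fold lower, against 11.9% of all genes. All 12 keratinocyte markers were at least 2-fold higher in s-GAG and in Alg on day 7. In d-SMG, 7 of them were higher and 0 lower. Of the 8 sebaceous gland markers, 3 were at least 2-fold higher in s-GAG and 7 in Alg, with 0 lower. In d-SMG, 1 was higher and 1 lower. The part of these cells in the differences of day 7 was not tested.

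On day 14, the sterol path was higher in d-SMG than in the control. All 18 sterol enzymes lay above the control and 16 were at least 2-fold higher, against 12.6% of all genes, with a median of 1.52 against -0.01 over all genes. The sterol isomerase *Ebp* differed by 2.63 (95% counting interval 2.40 to 2.88), *Cyp51* by 2.34 (95% counting interval 2.27 to 2.41), *Acat2* by 1.93 (95% counting interval 1.81 to 2.06), and *Idi1* by 1.80 (95% counting interval 1.70 to 1.89). The exceptions were *Lss* (0.24) and *Sc5d* (0.81). The fatty acid enzymes had a median of 0.88, with 3 of 8 at least 2-fold higher, namely *Elovl5* (1.61), *Acly* (1.17), and *Fads2* (1.09). *Elovl6* was the 1 member at least 2-fold lower (-1.50), against 16.1% of all genes, and *Insig1* was the 1 regulator at least 2-fold higher (1.12). The sebaceous gland markers were highest in s-GAG and d-SMG on day 14, at 2606 and 2191 CPM, against 1205 CPM in the control of that day, and the keratinocyte markers there were 35270 and 18080 CPM, against 12160 CPM. The keratin *Krt79* made up most of the sebaceous gland sum, with 1638 CPM in s-GAG, 1694 CPM in d-SMG, and 989 CPM in the control. Of the 8 sebaceous gland markers, 4 were at least 2-fold higher in d-SMG and 5 in s-GAG, with 0 lower. The basal keratin *Krt14* made up most of the keratinocyte sum in both treated libraries. It had 24620 CPM in s-GAG, 10580 CPM in d-SMG, and 2413 CPM in the control. Of the 12 keratinocyte markers, 3 were at least 2-fold higher and 6 at least 2-fold lower in d-SMG on day 14, and 3 were higher and 4 lower in s-GAG. The keratins of the upper layers were among the lower ones, *Krt1* at 33.9 CPM in d-SMG against 1653 CPM in the control and *Krt10* at 25.5 against 2333 CPM. All 14 skeletal muscle markers were at least 2-fold lower in d-SMG on day 14 (8781 CPM in sum against 62490 CPM in the control, a log2 difference of -2.83). All 10 proliferation genes were at least 2-fold higher (1.63 for their sum), and 10 of 12 hair follicle markers were higher and 0 lower. In Alg on day 14, all 14 muscle markers were likewise lower and all 10 proliferation genes higher. In s-GAG, 7 muscle markers were higher and 2 lower, and 7 proliferation genes were higher and 0 lower. The proliferation sum was lowest of the 12 libraries in the control of day 14, at 274 CPM. The part of any of these cells in the differences of day 14 was not tested.

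Of the sterol enzymes, 13 were at least 2-fold lower in d-SMG on day 3 and at least 2-fold higher in d-SMG on day 14, each against the control of its day, against 3.48% of 15361 genes compared in both pairs. The same was seen for 2 fatty acid enzymes, *Acly* and *Elovl5*, and for 0 regulators. Within the d-SMG libraries, the median sterol enzyme was 1.59 log2 units below its own mean over the 12 libraries on day 3, 0.50 below it on day 7, and 1.001 above it on day 14. In the control the same value was -0.09 on day 3, -0.30 on day 7, and -0.56 on day 14, so that the control of day 14 was the second lowest of the 12 libraries, below d-SMG on day 7.

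In s-GAG on day 14, 13 sterol enzymes were at least 2-fold higher and 0 were lower, with a median of 1.62, but 27.8% of all genes were at least 2-fold higher and 30% at least 2-fold lower in this pair, the largest shares of the 9 pairs. *Ebp* differed by 3.50 (95% counting interval 3.28 to 3.74), *Pmvk* by 2.84 (95% counting interval 2.75 to 2.93), and *Dhcr7* by 2.65 (95% counting interval 2.18 to 3.15). *Lss* (-0.30), *Sc5d* (-0.32), and *Hsd17b7* (-0.15) lay below the control. Of the fatty acid enzymes, *Fads2* (2.08) and *Elovl5* (1.60) were at least 2-fold higher and *Elovl6* (-2.19) at least 2-fold lower, and *Insig1* was higher by 1.48. In Alg on day 14, *Dhcr7* (1.16), *Cyp51* (1.10), *Insig1* (1.27), and *Fads2* (1.48) were at least 2-fold higher, against 9.1% of all genes, and *Elovl6* (-1.93) was at least 2-fold lower, against 12.2%. The median of the sterol enzymes was 0.72 there and that of the fatty acid enzymes 0.10.

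**Figure D2:**
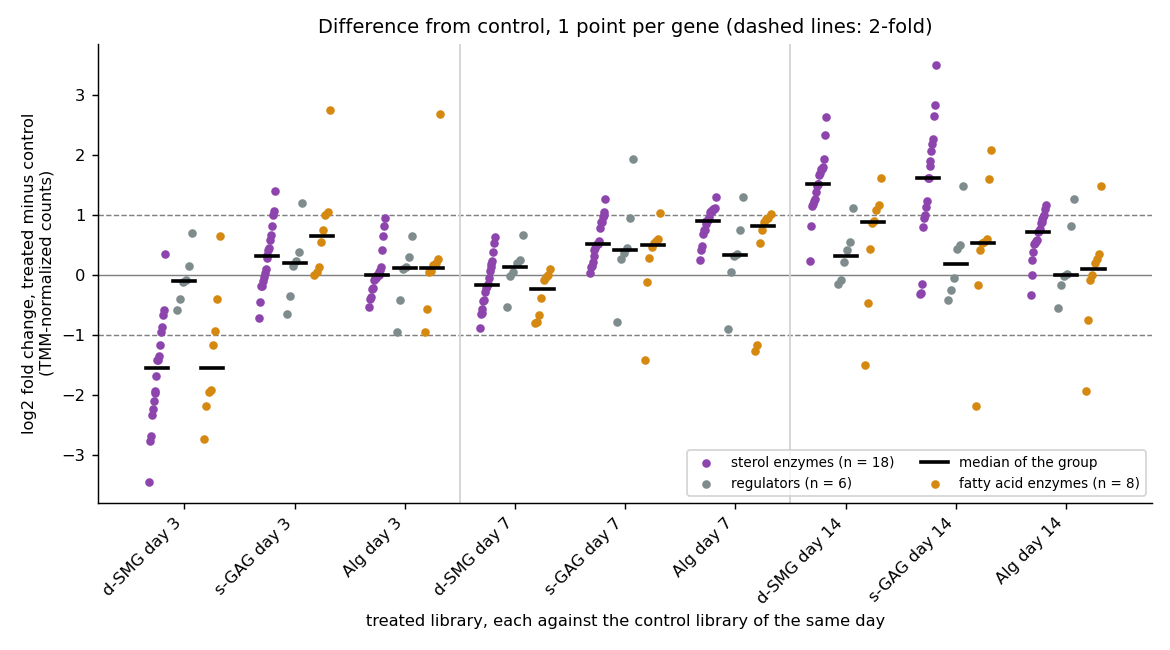
Log2 fold change of each member (points, colored by role; black bars are medians) in each treated library against the control library of the same day, with dashed lines at 2-fold. The sterol enzymes center on -1.56 in d-SMG on day 3 and on 1.52 in d-SMG on day 14, while the regulators stay near 0 in most pairs.

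The differences in s-GAG on day 14 went with transcript length, which was read from the ratio of reads to FPKM after seeing the data. Over 13087 genes, the Spearman correlation of length with the log2 difference was -0.51 in this pair, and the median difference was 1.08 in the shortest 4363 genes and -0.95 in the longest 4362. Over the 18 sterol enzymes the correlation was -0.80, with *Ebp* at 1.24 kb and *Pmvk* at 1.31 kb among the highest and *Sc5d* at 5.42 kb and *Lss* at 5.12 kb below the control. Beside genes of like length, the 8 sterol enzymes of the shortest class had a median of 2.13, the 7 of the middle class 1.23 against -0.04 for all genes there, and the 3 of the longest class -0.30. All 18 lay above the median of all genes in their class. In d-SMG on day 14 the correlation was -0.31 over all genes and -0.51 over the sterol enzymes. The medians of the 3 length classes were 1.64, 1.67, and 0.81 for the sterol enzymes, against 0.32, 0.06, and -0.28 for all genes. The part of length, or of what it goes with, in these differences was not tested. In the other 7 pairs the correlation over all genes lay between -0.23 and 0.34. Over the sterol enzymes it was 0.80 in s-GAG on day 3, of the opposite sign to that in s-GAG on day 14, 0.46 in Alg on day 3, and -0.41 in Alg on day 14, and it lay between -0.065 and 0.162 in the remaining 4.

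**Figure D3:**
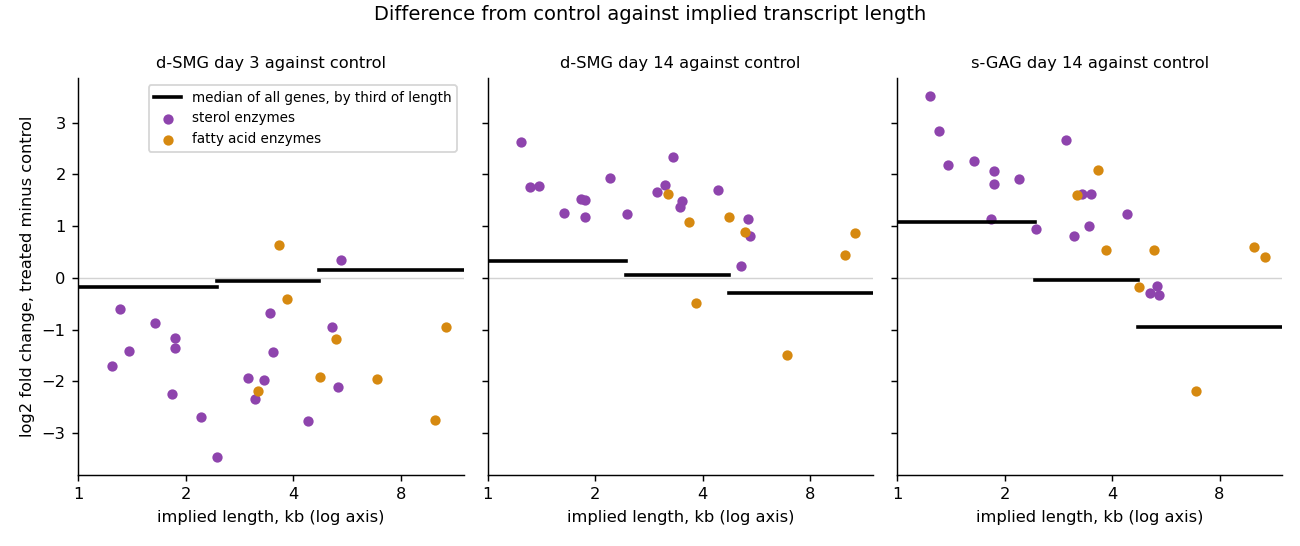
Log2 fold change (vertical axis) against the implied transcript length in kb (log axis) for the sterol and fatty acid enzymes (points), with black bars for the median of all genes in each of 3 length classes of equal size. In s-GAG on day 14 the bars fall from 1.08 to -0.95 and the sterol enzymes follow them at a higher level, whereas in d-SMG on day 14 the bars run from 0.32 to -0.28.

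Among the regulators, the transcription factor *Srebf2*, which drives the sterol genes, had levels of 16.2, 18.2, and 22.7 CPM in the control, 15.4, 21.4, and 26.3 in d-SMG, 21.0, 23.5, and 16.9 in s-GAG, and 20.0, 18.8, and 22.3 in Alg, a range of 1.71-fold. The carrier *Scap* was the flattest member, with a range of 1.51-fold. *Srebf1*, which drives the fatty acid genes above all, had 21.9, 12.1, and 18.2 CPM in the control, 35.5, 8.29, and 17.2 in d-SMG, 17.2, 16.5, and 24.4 in s-GAG, and 11.4, 29.8, and 12.4 in Alg. It was highest in d-SMG on day 3, the library in which most of the enzymes were lowest, although with library size alone Alg on day 7 was highest.

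Both Insig genes encode proteins that hold the SREBP and Scap complex in the endoplasmic reticulum. *Insig1* had 49.5, 24.8, and 27.8 CPM in the control, 37.4, 39.6, and 60.4 in d-SMG, 31.6, 48.2, and 77.2 in s-GAG, and 36.9, 30.8, and 67.2 in Alg. *Insig2* had 18.5, 17.1, and 50.3 CPM in the control, 12.3, 19.7, and 45.4 in d-SMG, 42.5, 65.2, and 48.3 in s-GAG, and 28.9, 28.7, and 44.7 in Alg. On the FPKM scale, *Insig1* was 2.33-fold above *Insig2* in the control on day 3 and 2.66-fold above it in d-SMG on day 3, whereas the ratio was 0.482 in the control on day 14 and 0.649 and 0.645 in s-GAG on day 3 and 7. In the control libraries *Insig2* had 5.18 FPKM on day 3 and 14.0 FPKM on day 14. The sterol carrier *Stard4* had 21.4, 36.9, and 17.3 CPM in the control, 19.6, 38.4, and 23.1 in d-SMG, 25.2, 21.4, and 14.6 in s-GAG, and 23.5, 19.7, and 30.6 in Alg and was highest in d-SMG and the control on day 7.

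**Figure D4:**
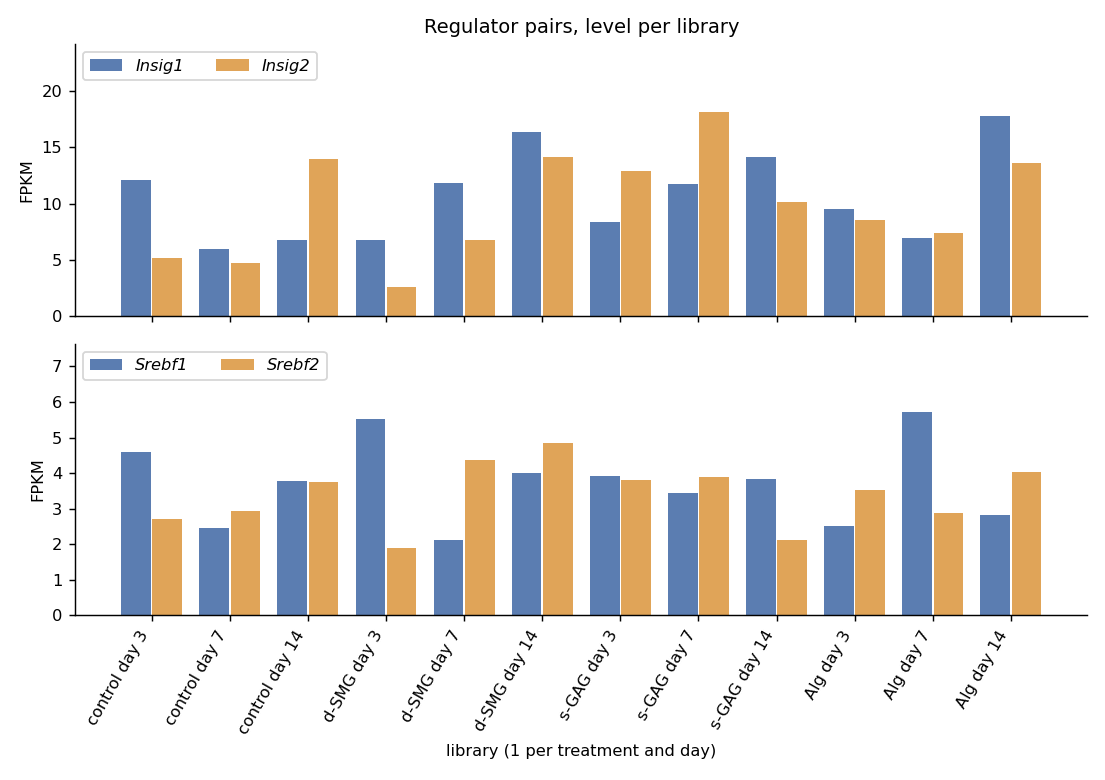
FPKM (vertical axis, bars from 0) of *Insig1* and *Insig2* (top) and of *Srebf1* and *Srebf2* (bottom) in each library, 1 bar per gene and library. *Insig2* stands above *Insig1* in the control on day 14, in s-GAG on day 3 and 7, and slightly in Alg on day 7, and *Srebf1* stands farthest above *Srebf2* in d-SMG on day 3, where their ratio was 2.90.

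The fatty acid enzymes with the widest range were *Elovl6*, *Fasn*, *Acly*, *Elovl5*, and *Fads2*. The elongase *Elovl6* had 21.3, 34.9, and 125 CPM in the control, 5.47, 20.3, and 44.4 in d-SMG, 43.9, 32.2, and 27.5 in s-GAG, and 24.0, 70.1, and 32.8 in Alg. Its highest level was in the control on day 14, so that it was the 1 enzyme at least 2-fold lower than the control in all 3 treated libraries of that day. *Fasn* had 51.1, 70.7, and 109 CPM in the control, 7.64, 44.2, and 148 in d-SMG, 102, 102, and 165 in s-GAG, and 52.7, 129.8, and 64.7 in Alg. The levels of *Acly*, which supplies the acetyl-CoA, were 111, 158, and 135 CPM in the control, 29.4, 121, and 303 in d-SMG, 186, 219.6, and 119.6 in s-GAG, and 128, 229, and 163 in Alg. Both were lowest in d-SMG on day 3. *Elovl5*, which lengthens polyunsaturated chains, had 182, 135, and 127 CPM in the control, 40.2, 132, and 387 in d-SMG, 189.7, 163, and 385 in s-GAG, and 123, 261, and 146 in Alg, with nearly equal levels in d-SMG and s-GAG on day 14. The desaturase *Fads2* had 7.77, 23.3, and 14.6 CPM in the control, 12.1, 25.0, and 31.2 in d-SMG, 52.5, 34.5, and 61.9 in s-GAG, and 50.1, 9.69, and 40.9 in Alg, and its lowest level was in the control on day 3. *Fads1*, the other desaturase of that path, ranged only from 5.21 CPM in s-GAG on day 7 to 14.0 CPM in s-GAG on day 14. The carboxylase *Acaca*, which makes malonyl-CoA, ranged from 22.5 CPM in d-SMG on day 3 to 82.0 CPM in d-SMG on day 14. *Scd*, which makes monounsaturated fatty acids, ranged from 50.9 to 215 CPM between the same 2 libraries.

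Across the 12 libraries, the median Pearson correlation between 2 sterol enzymes was 0.81, over 153 pairs of genes, and it was 0.73 without d-SMG on day 3. It was 0.58 between the fatty acid enzymes (0.28 without that library) and 0.10 between the regulators (0.16 without it). With the median of the other sterol enzymes, *Acat2* had the closest course (r = 0.99) and *Sc5d* the least close (r = 0.31), and among the other members *Elovl5* (r = 0.96) and *Acaca* (r = 0.92) were closest. Without d-SMG on day 3 the closest of these was *Scap*, whose r went from 0.69 to 0.96, followed by *Elovl5* (r = 0.92) and *Acaca* (r = 0.86). The median course of the sterol enzymes had r = 0.93 with that of the fatty acid enzymes (0.85 without d-SMG on day 3). The points of these correlations are libraries of different treatments and days, with shared scaling, and they are given as a description. The same median over pairs of genes that are not members is not given here, so whether the members differ from other genes in it was not tested.

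The sterol course also went with markers of skin epithelium. Its correlation with the summed sebaceous gland markers was 0.87 over 12 libraries and 0.83 over the 11 without d-SMG on day 3, and with the keratinocyte markers it was 0.84 and 0.76. *Krt79* was the largest part of the sebaceous gland sum in every library but d-SMG on day 3, and the correlation without this gene was not computed. For the fatty acid enzymes the correlation with the sebaceous gland markers was 0.94 and 0.88. For the other lists, the correlation with the sterol course was -0.61 for 10 macrophage markers (633 to 4381 CPM), 0.54 for 12 hair follicle markers (25.6 to 42740 CPM), and 0.47 for 10 proliferation genes (274 to 1025 CPM), and without d-SMG on day 3 these were -0.774, 0.282, and 0.435. For the 6 fibroblast markers (5895 to 43770 CPM) it went from -0.004 to -0.495 without that library, and for the skeletal muscle markers from -0.20 to 0.16. It was 0.09 for 9 adipocyte markers (598 to 2579 CPM) and -0.10 for 6 Schwann cell markers (21.0 to 149 CPM), and 0.05 and -0.06 without that library. The part of these cells in the levels of the enzymes was not tested.

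**Figure D5:**
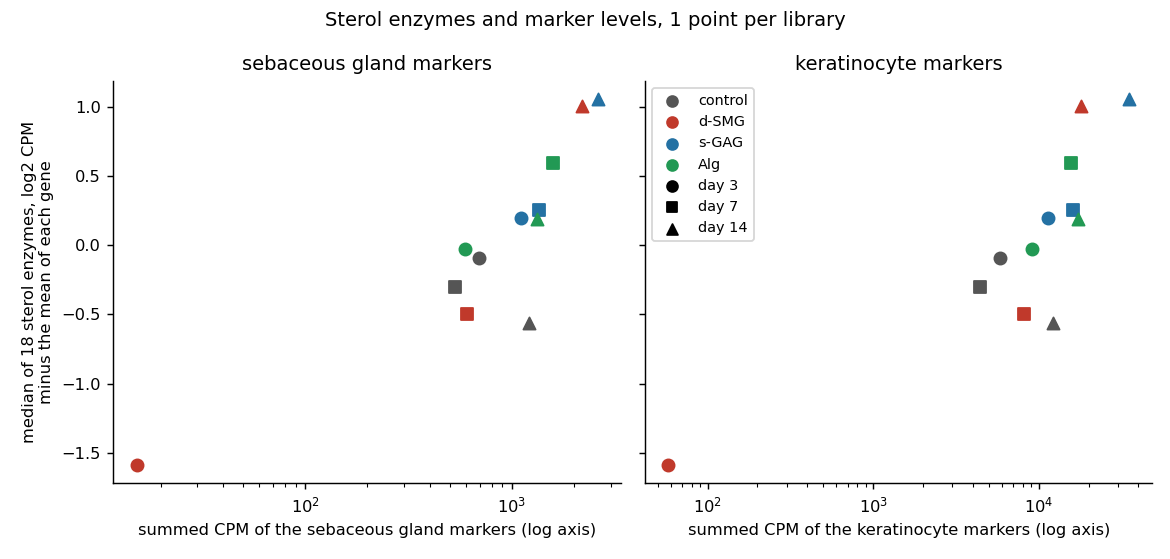
Median of the 18 sterol enzymes, as log2 CPM minus the mean of each gene (vertical axis), against the summed CPM of the sebaceous gland markers (left) and of the keratinocyte markers (right, both log axes), with 1 point per library, colored by treatment and shaped by day. d-SMG on day 3 lies apart at the lower left, and d-SMG and s-GAG on day 14 lie at the upper right of both panels.

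Over the 3 days, each treatment was compared with the control by the quasi-likelihood test of edgeR, in which the days served as replicates and day was a term of the model. No member passed an adjusted p of 0.05 in d-SMG, s-GAG, or Alg, and the share of all 16110 genes that passed was 0%, 0%, and 0%. DESeq2 also called 0 members, while it called 9, 288, and 88 genes. The median log2 difference of the sterol enzymes was 0.03 in d-SMG (11 of 18 above the control), 0.79 in s-GAG (18 of 18), and 0.47 in Alg (18 of 18), against -0.03, 0.002, and -0.03 over all genes. Without d-SMG on day 3, the median in d-SMG was 0.67, with 18 of 18 above the control, whereas without the libraries of day 14 it was -0.78, with 1 of 18 above, and no member passed in either case. The fatty acid enzymes had medians of -0.16, 0.50, and 0.18. The members at an unadjusted p under 0.05 were 0 in d-SMG, 3 in s-GAG, and 0 in Alg, against 1.35%, 9.26%, and 3.12% of all genes, so that the share in s-GAG (9.38%) was near that of all genes. The 3 in s-GAG were *Fads2*, which was 1.67 log2 units (SE 0.65) above the control with an adjusted p of 0.516, *Dhcr7* at 1.41 (SE 0.57) with 0.524, and *Insig2* at 1.07 (SE 0.40) with 0.504.

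Between days, with the 4 treatments as replicates, 0 members and 0% of all genes passed the same test in each of the 3 comparisons, that is 0% for day 7 against day 3, 0% for day 14 against day 3, and 0% for day 14 against day 7. DESeq2 called 0, 39, and 7 genes and 0 members. All 18 sterol enzymes had a higher fitted level on day 14 than on day 3, with a median of 0.91, and a median of 0.54 against day 7. Without d-SMG on day 3, these medians were 0.45 (17 of 18) and 0.42 (17 of 18), and the median of day 7 against day 3 turned from 0.28 to -0.05. Without all 3 d-SMG libraries, the medians were 0.21 (15 of 18) against day 3 and 0.09 (10 of 18) against day 7. At an unadjusted p under 0.05, 4 members (12.5%) were found for day 14 against day 3, against 4.95% of all genes, and 0 in day 7 against day 3 and day 14 against day 7, where 1.81% and 3.12% of all genes were found. They were *Insig2* (1.09, SE 0.35), *Fasn* (1.53, SE 0.61), *Lss* (0.92, SE 0.36), and *Tm7sf2* (1.38, SE 0.61), each with an adjusted p of 0.882. Without d-SMG on day 3, this count for day 14 against day 3 was 0 sterol enzymes, 1 regulator, and 0 fatty acid enzymes. Without all 3 d-SMG libraries it was 0 in each role. The shares of all genes in these 2 fits are not given here.

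Other genes of the pathway were taken from 2 lists that hold no member. Of 20 other synthesis and uptake genes, 1 of which (*Elovl3*) is also among the sebaceous gland markers, 8 of 19 compared were at least 2-fold lower and 1 higher in d-SMG on day 3 (median -0.74), where 13.5% of all genes were lower and 9.47% higher. In d-SMG on day 14, 9 of 20 were at least 2-fold higher and 0 lower (median 0.71), against 12.6% and 16.1% of all genes. In s-GAG on day 14, 5 of 19 were higher and 2 lower, with a median of 0.24, against 27.8% and 30% of all genes, so that the share of higher genes was near that of all genes. Of 13 sterol export and storage genes, 5 were at least 2-fold lower and 0 higher in d-SMG on day 3, and 0 differed by 2-fold in d-SMG on day 14, where their median was 0.15. In Alg, 4 of them were lower and 0 higher on day 3, against 8.73% and 11.5% of all genes, and 4 were lower and 1 higher on day 7, against 11.9% and 12.5%. In the quasi-likelihood test 0 genes of either list passed an adjusted p of 0.05 in the 6 comparisons.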

How the data were processed

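RNA of rat wound tissue was depleted of rRNA, made into stranded libraries, and read in pairs of 150 bases. The authors deposited whole-number read counts without normalization, and they also deposited FPKM values scaled by gene length and library total. Per the labels, bcl2fastq, FastQC, TopHat2, and edgeR were used. The genome build, the counter, and the tool versions are not given in the sources used here, and 1 column of values in each table matched no sample and was not used. The ratio of FPKM to counts was compared over 4987 genes with at least 200 reads in each library. From library to library, it changed by nearly the same factor for each gene.

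The members and the gene lists were chosen with earlier results of these data known. Every member may be named, and values in every library were given for up to 5 members of a role with the widest range and for the paired regulators. Counts were normalized by TMM in edgeR 4.0.16 (R 4.3.3) over genes kept by filterByExpr. Single libraries were compared by the log2 ratio, with Clopper-Pearson intervals at 95% that cover the counting error only. The quasi-likelihood test used day and treatment as terms, with Benjamini-Hochberg adjustment at 0.05. It was also run on counts simulated at a BCV (biological coefficient of variation) of 0.1 and 0.3, both below the fitted 0.495. At 0.3 it recovered 25 of 100 genes with a true log2 difference of 1 and 95 of 100 with 2. Its recovery at the fitted BCV was not simulated, so a member that did not pass may still differ. Since the days stood in as replicates, an effect of treatment present on 1 day alone widens the spread of the test. Alternatives were RLE factors, library size alone, DESeq2 1.42.0, limma 3.58.1 on log2 FPKM, other filters, a 1.5-fold threshold, the exact test of edgeR at an assumed BCV of 0.3, no replicate block, only the groups compared, and leaving out each day or treatment. The assumed BCV of 0.3 was also below the fitted one. Leaving out d-SMG on day 3 or s-GAG on day 14 and the grouping by length were added after seeing the data. Promoters came from RefSeq (GRCr8), with the first start listed for each symbol. Figures were drawn with matplotlib.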

Additional observations from a re-analysis of the deposited data

Results flagged for a closer look

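The sterol enzymes moved in opposite directions in the same contrast on 2 days. Their median log2 difference between d-SMG and the control was -1.56 on day 3 and 1.52 on day 14, which is 3.07 log2 units apart, and 13 of 18 enzymes were at least 2-fold lower on the first day and at least 2-fold higher on the second, against 3.48% of 15361 genes compared in both pairs. The difference was not tested, since each treatment and day had 1 library. The keratinocyte markers summed to 57.6 CPM in d-SMG on day 3, against 5795 CPM in the control, a log2 difference of -6.65. On day 14 they summed to 18080 CPM in d-SMG, with *Krt14* at 10580 CPM, against 12160 CPM in the control, a log2 difference of 0.57. All 12 of these markers were at least 2-fold lower on day 3, whereas 3 were higher and 6 lower on day 14. Their part in the difference was not tested.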

How the results depend on the processing

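No member passed the quasi-likelihood test under any alternative, DESeq2, limma on FPKM, and no replicate block included. The number of genes that passed was 0 in each of the 6 comparisons, and with DESeq2 it was 9 for d-SMG, 288 for s-GAG, 88 for Alg, 39 for day 14 against day 3, and 7 for day 14 against day 7. For s-GAG it was 1 without the low-count filter and 12 with only the groups compared, and for Alg it was 9 with only the groups compared. Leaving out single days or libraries gave 0 to 66 genes for s-GAG, with 66 without d-SMG on day 3. Without the replicate block (day, or treatment in the comparisons of days) 0 genes passed.

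The number of members at least 2-fold from the control was within 1.5 times in all 9 pairs with RLE factors, a minimum of 50 reads, and no minimum. In d-SMG on day 3 it was 18, and 10 by the exact test at an assumed BCV of 0.3. In d-SMG on day 14 it was 21, and 3 by that test. It went from 6 to 12 at 1.5-fold and to 1 by the exact test in s-GAG on day 3. In s-GAG on day 7 it went from 5 to 8 with library size alone, 2 with log2(FPKM + 1), 13 at 1.5-fold, and 1 by the exact test. In Alg on day 3 it went from 1 to 2 with library size alone, 2 with log2(FPKM + 0.1), and 7 at 1.5-fold. In Alg on day 7 it went from 11 to 3 with log2(FPKM + 1), 7 with log2(FPKM + 0.1), 25 at 1.5-fold, and 0 by the exact test. In Alg on day 14 it went from 5 to 8 with library size alone, 9 with log2(FPKM + 0.1), 15 at 1.5-fold, and 0 by the exact test. In d-SMG on day 7 it went from 0 to 1 with library size alone and 8 at 1.5-fold. Of 162 medians recomputed for the role groups, 130 stayed within the counting error of the reported value, 32 moved further, and 0 medians of at least 2-fold changed direction; the cause was not tested.

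Library size alone shifted the median of all genes by -0.43 in d-SMG on day 3, 0.36 in d-SMG on day 7, 0.19 in d-SMG on day 14, -0.45 in s-GAG on day 14, 0.14 in s-GAG and in Alg on day 3, and 0.10 in Alg on day 14. Among all genes past 2-fold, the share that was higher moved from 41.3% to 18.6% in d-SMG on day 3, from 51.5% to 73.4% in d-SMG on day 7, from 44.0% to 56.7% in d-SMG on day 14, from 57.3% to 67.9% in s-GAG on day 3, and from 48.1% to 33.0% in s-GAG on day 14. With log2(FPKM + 0.1) it moved from 42.8% to 54.3% in Alg on day 14. The sterol medians in d-SMG were -1.99 on day 3 and 1.70 on day 14 with library size alone. Depth limits *Tm7sf2*, with 4 to 48 reads a library, and, in d-SMG on day 3, *Dhcr7* with 11 reads and *Sqle* with 16.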
